A study of Sus scrofa with 4 samples.

Results

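The genes described here encode proteins that write or read the m6A mark on RNA in porcine 4-cell embryos, with or without Bobcat339, a cytosine derivative described as an inhibitor of TET enzymes, which oxidise methylated cytosine in DNA. They are 3 writers (METTL3, METTL14 and WTAP), 5 readers with a YTH domain (YTHDF1, YTHDF2, YTHDF3, YTHDC1 and YTHDC2) and 2 readers of another kind (IGF2BP2 and IGF2BP3). They were chosen by gene symbol, and each of the 10 symbols matched exactly 1 of the 35248 rows of the deposited gene table. The embryos were parthenogenetic, which means that electro-activated oocytes developed with no sperm and no paternal genome, and were grown for 48 h in PZM-3 medium with bovine serum albumin after a period with cytochalasin B. In 2 libraries (Bobcat339 1 and 2) the embryos were treated with 50 µM Bobcat339. The other 2 libraries (control 1 and 2) came from embryos given DMSO, the solvent. The labels give neither the number of embryos in a library nor whether replicates were separate cultures. The p-values therefore measure the spread between these libraries, which may be technical.

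N6-methyladenosine, m6A, is the most common internal modification of messenger RNA. METTL3 carries the catalytic site, METTL14 pairs with it and holds the RNA, and WTAP brings the pair to nuclear speckles. YTH-domain proteins bind the methylated base. In mice YTHDF2 is needed in the oocyte for the dosage of maternal transcripts, and in zebrafish its orthologue takes part in clearing them at the transition from maternal to zygotic control. IGF2BP proteins bind RNAs that carry the mark and are known for protecting them from decay. RNA sequencing of this kind measures transcripts of these genes, and neither the mark nor the proteins. Fewer transcribing cells and less RNA per cell cannot be told apart in such libraries.

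Library totals lay between 13568525 and 14681221 counts. The control libraries differed more from each other than the Bobcat339 libraries did: the median absolute log2 ratio within the pair was 0.28 for Bobcat339 and 0.52 for control over the 18481 rows that passed a filter on low counts, and the control pair had the larger gap at 67.8% of rows. Oocyte and early embryo markers such as BMP15, WEE2 and KLF17 summed to 10844 and 12657 CPM (counts relative to library size) in the Bobcat339 libraries and to 10530 and 12315 CPM in controls, though the oocyte factor ZAR1 was low, with a mean of 0.624 FPKM (counts scaled to library size and gene length). Markers of cumulus and granulosa cells summed to 84.4 and 94.5 CPM with Bobcat339 and to 72.9 and 96.4 CPM in controls, and 9 of these 10 genes had a count in some library. Most of these sums was VCAN, with 1086 and 1020 counts with Bobcat339 and 806 and 1146 counts in controls. HAS2 had 59 and 165 counts with Bobcat339 and 75 and 67 counts in controls, and TNFAIP6 had 7 and 4 counts with Bobcat339 and 24 and 22 counts in controls. STAR had 80 and 62 counts with Bobcat339 and 126 and 67 counts in controls. AMH was at 0 throughout and FSHR had 1 count in all. The part of such cells in the results below was not tested. Blood and immune markers summed to 10.6 and 13.1 CPM with Bobcat339 and to 11.7 and 10.03 CPM in controls.

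The 10 transcripts differed widely in level. All were detected in every library, with between 53 and 15322 counts, and together they took 0.236% and 0.234% of the counts in the Bobcat339 libraries and 0.235% and 0.212% in the control libraries. Levels of different genes are compared in FPKM, which the authors computed per gene length. IGF2BP3 was highest with a mean of 153 FPKM over the 4 libraries (range 116 to 168), at the 98.3rd percentile of the tested rows. YTHDF2, the reader tied to RNA decay, followed with 117 FPKM (96.9 to 141), and its range overlapped that of IGF2BP3. YTHDF3 had 62.5 FPKM (47.4 to 77.1) and WTAP 42.4 FPKM (36.8 to 46.7), and each of these ranges was clear of the next. METTL3 (12.1 FPKM, 9.90 to 14.4) and the nuclear reader YTHDC1 (11.3 FPKM, 10.4 to 13.3) were not separated by their spread. METTL14 stood below them at 6.19 FPKM (5.47 to 7.27).

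At the low end, YTHDC2 (1.41 FPKM, 1.27 to 1.60), IGF2BP2 (1.35 FPKM, 0.826 to 1.76) and YTHDF1 (1.09 FPKM, 0.901 to 1.25) had ranges that overlapped those of their neighbours, though the range of YTHDC2 lay wholly above that of YTHDF1. YTHDF1 was at the 19.1st percentile of the tested rows. Some members of the same protein family lay far apart and others did not: IGF2BP3 was 84.7 to 204 times IGF2BP2 in FPKM within a library, and YTHDF2 was 77.9 to 127 times YTHDF1 but 1.78 to 2.04 times YTHDF3. The order at the top rests on the lengths used. By CPM, which is not per length, and by counts per kilobase of the table's own length column, YTHDF2 came before IGF2BP3. By that column WTAP also came before YTHDF3, although their FPKM ranges were apart. Ratios and shares between different genes in FPKM change with the lengths too.

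**Figure D1:**
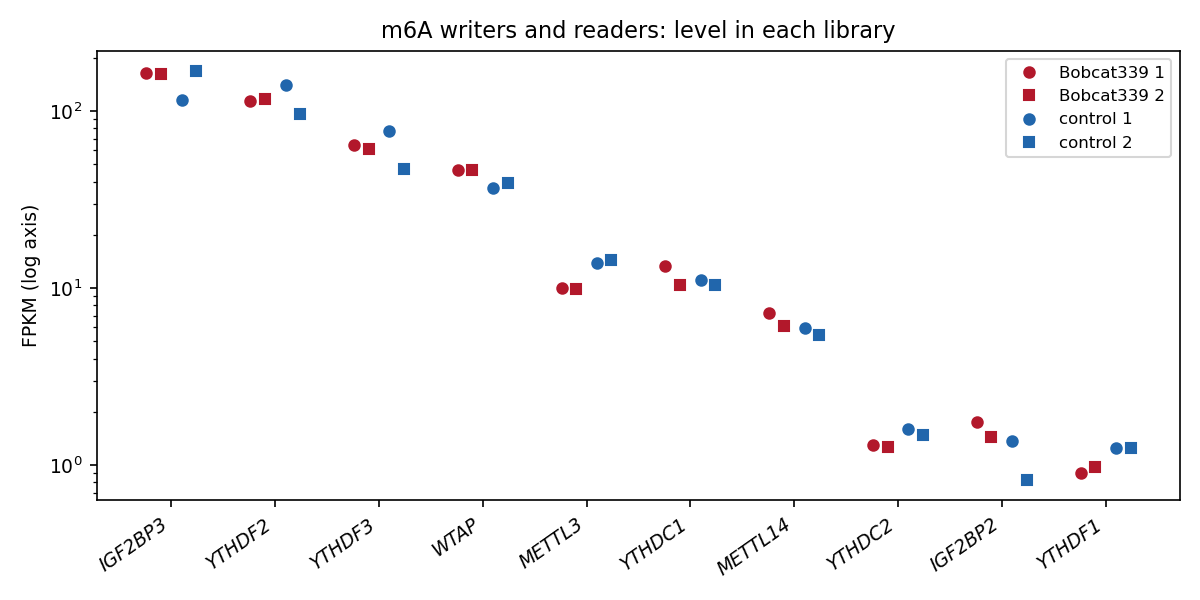
Level of each gene in FPKM on a log axis, 1 point a library, ordered by the mean over the 4 libraries. Red points are Bobcat339 libraries and blue points control libraries; IGF2BP3, YTHDF2, YTHDF3 and WTAP stand above 36 FPKM in every library, while YTHDC2, IGF2BP2 and YTHDF1 stay below 2 FPKM.

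None of the 10 genes passed the test between Bobcat339 and control embryos. The test was edgeR's quasi-likelihood test across all 18481 rows, with log2 fold changes as Bobcat339 over control. For each gene it estimates spread partly from all rows together. The p-values, SEs and intervals therefore do not rest on a gene's own libraries alone. Each of the 10 had a Benjamini-Hochberg adjusted p of 0.999. Over all rows 0 passed as well (0.00%), and 740 had an unadjusted p under 0.05 (4.00%), against 0 of the 10 genes described here, whose unadjusted p from edgeR ran between 0.106 for METTL3 and 0.949 for YTHDF3. On the same rows limma-voom called 0 and DESeq2, on 30007 rows, called 5 (0.0167%), none of them among the 10. Log2 fold changes ran between -0.53 and 0.52, 5 above and 5 below 0, with a median of 0.05 beside -0.02 over all tested rows. In 5 of the 10 genes the libraries of the groups did not overlap on normalised CPM, 2 higher and 3 lower with Bobcat339, where 29.3% of all tested rows did not overlap (13.3% higher and 16.0% lower). The values below are CPM normalised with TMM unless FPKM is named.

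Among the writers, METTL3 had the largest difference and METTL14 and WTAP lay on the other side of 0. METTL3, the catalytic subunit, had 24.6 and 23.9 CPM with Bobcat339 and 35.02 and 34.91 CPM in controls. Both Bobcat339 libraries were below both controls, and within each pair the libraries were closer than their counting error: the log2 ratio of library 1 over 2 was 0.041 with Bobcat339 (counting SE 0.11) and 0.004 in controls (counting SE 0.092). Its log2 fold change of -0.53 (SE 0.31; 95% interval -1.18 to 0.12) amounts to 0.694 times the control level, with an interval of 0.442 to 1.09. Without any 1 of the 4 libraries the value stayed between -0.55 and -0.46, and the smallest adjusted p was 0.351. The METTL3 row (ENSSSCG00000024445, chromosome 7: 77661946 to 77690107, plus strand) overlaps the row of TOX4 on the minus strand by 12695 bases and that of RAB2B by 557 bases. These libraries do not mark the strand. TOX4 had 5630 and 6459 counts with Bobcat339 and 6545 and 4403 in controls, against 362 and 329 and then 490 and 489 counts for METTL3. The part of overlapping transcripts in the METTL3 counts was not tested.

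METTL14, the partner that METTL3 needs for activity, had 23.6 and 19.5 CPM with Bobcat339 and 19.9 and 17.6 CPM in controls. The groups overlapped, since Bobcat339 2 fell between the controls. Its log2 fold change was 0.20 (SE 0.32, interval -0.48 to 0.88), and with 1 library left out it lay between 0.05 and 0.38. WTAP, the adaptor that places the pair, had 185 and 184 CPM with Bobcat339 and 151 and 156 CPM in controls, with both Bobcat339 libraries above both controls. Its mean was 185 ± 0.781 CPM with Bobcat339 and 153 ± 3.09 CPM in controls (SD, n = 2 each). Within each pair the libraries were again closer than their counting error. The log2 ratio of library 1 over 2 was 0.009 with Bobcat339 (counting SE 0.04) and -0.041 in controls (counting SE 0.044). The log2 fold change was 0.27 (SE 0.26, interval -0.28 to 0.81), and with 1 library left out it lay between 0.25 and 0.32. METTL14 is on chromosome 8 (105019481 to 105054016, minus strand) and WTAP on chromosome 1 (7622547 to 7651613, minus strand).

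Ratios between the writers within a library do not depend on how libraries were scaled, and those that contain METTL3 did not overlap between the groups. METTL14 made up 41.9% and 38.0% of the FPKM of METTL3 and METTL14 in the Bobcat339 libraries and 30.0% and 27.5% in the control libraries. The difference of the means was 11.3 percentage points, and with a library left out it lay between 9.32 and 13.2 points. The SDs within the pairs were 2.75 points with Bobcat339 and 1.73 points in controls, from 2 libraries each. They rest on METTL3 pairs that were closer than their counting error, so they may understate the spread. The exact two-sided permutation test gave p = 0.333, which is the smallest value that 2 against 2 libraries allow, and 0.666 after adjustment over the 6 shares compared. WTAP stood at 4.61 and 4.72 times METTL3 in the Bobcat339 libraries and at 2.65 and 2.73 times METTL3 in the control libraries. Against METTL14 it stood at 6.39 and 7.68 times with Bobcat339 and at 6.19 and 7.20 times in controls, where the groups overlapped. The METTL14 share and the ratio of WTAP to METTL3 both use the METTL3 values, which themselves did not overlap between the groups. Outside the writers, the ratios of YTHDC1 to YTHDC2 and of YTHDF2 to YTHDF1 did not overlap either. How often ratios of other genes do not overlap was not tested. The ratios given here were chosen with the values known and are given as a description. Summed over the writers the level was 63.8 and 62.7 FPKM with Bobcat339 and 56.7 and 59.3 FPKM in controls, most of it WTAP.

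**Figure D2:**
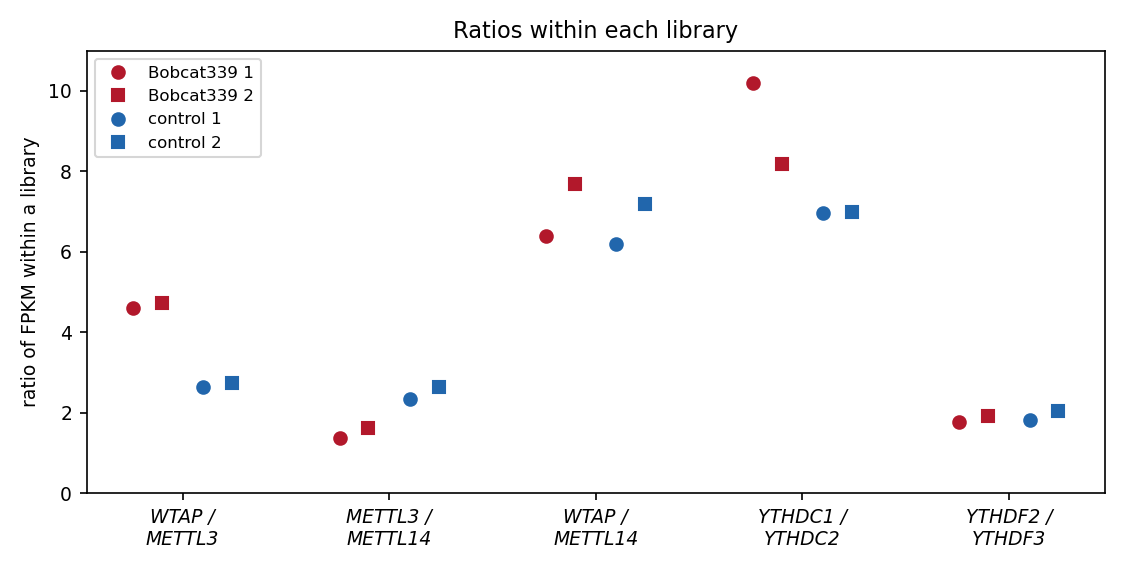
Ratio of FPKM of the named genes within each library, on a linear axis; red points are Bobcat339 and blue points control libraries, circles replicate 1 and squares replicate 2. WTAP over METTL3 is 4.61 and 4.72 with Bobcat339 and 2.65 and 2.73 in controls, whereas YTHDF2 over YTHDF3 stays between 1.78 and 2.04.

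The YTHDF proteins are cytoplasmic readers with closely related YTH domains. YTHDF2, the member that recruits the CCR4-NOT deadenylase, had 861 and 873 CPM with Bobcat339 and 1095 and 723 CPM in controls. The Bobcat339 libraries lay between the controls, which differed from each other by a log2 ratio of 0.599, far above its counting SE of 0.018. Its log2 fold change was -0.07 (SE 0.25, interval -0.59 to 0.46), at 0.26 without control 1 and -0.31 without control 2. YTHDF3, which shares targets with its paralogues, had 362 and 341 CPM with Bobcat339 and 447 and 265 CPM in controls. It lay between the controls in the same way, and its log2 fold change was -0.02 (SE 0.27, interval -0.60 to 0.56), at 0.41 without control 1 and -0.32 without control 2. The sign for YTHDF3 turned under other scalings, with values up to 0.01, so that no direction can be given for it.

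The ratio of YTHDF2 to YTHDF3 varied less over the libraries than their levels did. Control 1 exceeded control 2 by 1.51 times for YTHDF2 and by 1.69 times for YTHDF3. Yet the ratio of YTHDF2 to YTHDF3 in FPKM was 1.78 and 1.92 with Bobcat339 and 1.83 and 2.04 in controls. Genes of other families, such as SRSF3 and MAT2A, also had control 1 above control 2, while IGF2BP3 had the reverse. How often ratios of other genes vary this little was not tested. YTHDF2 made up 63.7% and 65.3% of the summed FPKM of the YTHDF genes with Bobcat339 and 64.3% and 66.6% in controls, and YTHDF3 nearly all of the rest.

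YTHDF1, known mainly for promoting translation of marked RNAs in human cell lines, had 3.60 and 3.85 CPM with Bobcat339 and 5.15 and 4.93 CPM in controls. Both Bobcat339 libraries were below both controls, but these values rest on 53 and 53 counts with Bobcat339 and on 72 and 69 counts in controls. The exact Poisson intervals of the unscaled levels ran from 2.70 to 4.72 and from 2.93 to 5.11 CPM with Bobcat339 and from 3.91 to 6.30 and from 3.88 to 6.30 CPM in controls, so that they overlapped. Such intervals cover counting error only, since reads without molecular identifiers are not independent molecules. The log2 fold change of YTHDF1 was -0.43 (SE 0.41, interval -1.30 to 0.43). The YTHDF1, YTHDF2 and YTHDF3 rows lie on chromosomes 17 (62328712 to 62341509, minus strand), 6 (85716780 to 85751560, plus strand) and 4 (70887102 to 70928839, minus strand).

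YTHDC1 works in the nucleus on splicing and export, and YTHDC2 is an RNA helicase needed for meiosis in mouse germ cells. YTHDC1 had 51.0 and 39.3 CPM with Bobcat339 and 44.1 and 39.6 CPM in controls. Bobcat339 1 was high and Bobcat339 2 just below control 2, so the groups overlapped, and the log2 fold change of 0.11 (SE 0.31, interval -0.54 to 0.76) became -0.10 without Bobcat339 1. YTHDC2 had 8.63 and 8.28 CPM with Bobcat339 and 10.9 and 9.78 CPM in controls. Both Bobcat339 libraries were below both controls, with 127 and 114 counts against 153 and 137, and the log2 fold change was -0.29 (SE 0.35, interval -1.03 to 0.45). YTHDC1 made up 91.1% and 89.1% of the FPKM of the YTHDC pair with Bobcat339 and 87.4% and 87.5% in controls, a difference of 2.64 points (exact two-sided permutation p = 0.333, the smallest possible; 0.666 adjusted) that was 1.67 points without Bobcat339 1 and 3.61 points without Bobcat339 2. YTHDC1 lies on chromosome 8 (65999525 to 66122727, plus strand) and YTHDC2 on chromosome 2 (118003541 to 118092173, plus strand).

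The IGF2BP proteins belong to a family of RNA-binding proteins with KH and RRM domains that is abundant in oocytes and embryos. IGF2BP3 had 826 and 811 CPM with Bobcat339 and 603 and 842 CPM in controls. Control 1 alone was low and both Bobcat339 libraries lay inside the range of the controls. The log2 fold change was 0.18 (SE 0.24, interval -0.33 to 0.69), at -0.04 without control 1 and 0.47 without control 2, where the adjusted p of 0.143 was the smallest that any of the 10 genes reached with a library left out. IGF2BP2 had 8.76 and 7.12 CPM with Bobcat339 and 7.003 and 4.07 CPM in controls. The Bobcat339 libraries were above the controls, Bobcat339 2 only just above control 1. Its log2 fold change was 0.52 (SE 0.40, interval -0.32 to 1.36), at 0.96 without control 1 and 0.22 without control 2. IGF2BP3 made up 98.9% and 99.1% of the FPKM of IGF2BP2 and IGF2BP3 with Bobcat339 and 98.8% and 99.5% in controls. IGF2BP2 lies on chromosome 13 (123485623 to 123650043, minus strand) and IGF2BP3 on chromosome 9 (92104787 to 92272014, minus strand).

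**Figure D3:**
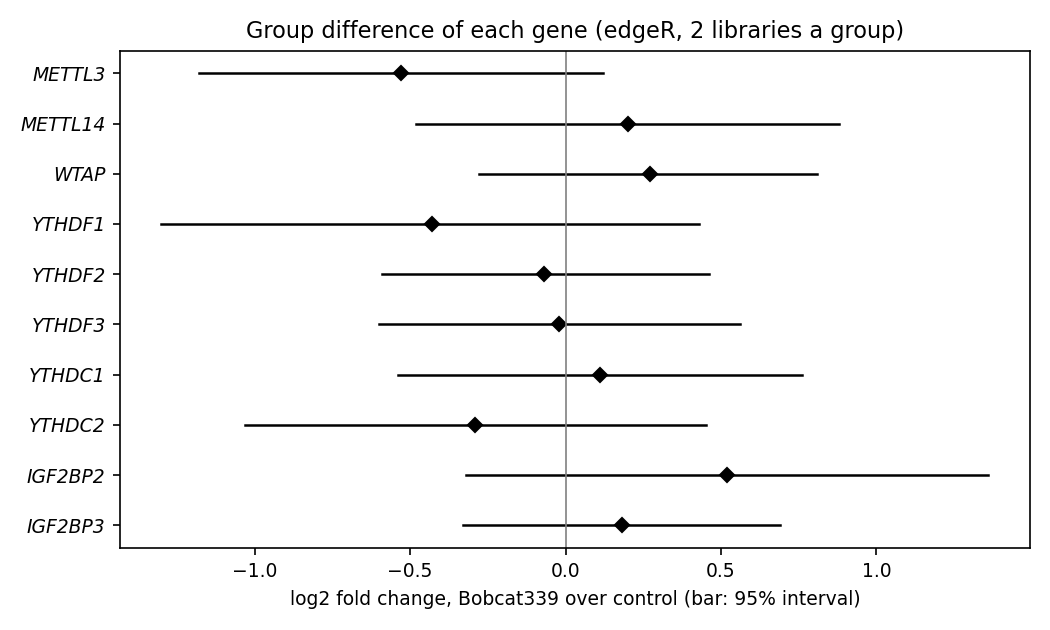
Log2 fold change of each gene, Bobcat339 over control, from edgeR, as a diamond with its 95% interval as a bar. METTL3 at -0.53 and IGF2BP2 at 0.52 lie farthest from 0, and every interval includes 0.

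The intervals spanned between 1.03 (IGF2BP3) and 1.73 (YTHDF1) on the log2 scale, with 2 libraries a group. They are not adjusted for the 18481 rows tested. They therefore do not give the smallest difference that the test could have called. The gap between the control libraries was larger than the difference between the groups in 5 of the 10 genes, where this held for 71.6% of all tested rows, and the gap between the Bobcat339 libraries in 3 of the 10, beside 55.0%. Differences between the libraries of a pair were above 2 counting SE in 3 genes for Bobcat339 and in 4 for control.

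Over the 4 libraries the genes fell into a few shapes. METTL3, YTHDF1 and YTHDC2 had both controls above and both Bobcat339 libraries below their mean, and WTAP had the opposite. YTHDF2 and YTHDF3 were highest in control 1 and lowest in control 2, with Bobcat339 within 0.06 of the mean on the log2 scale. IGF2BP3 was lowest in control 1. METTL14 and YTHDC1 were highest in Bobcat339 1, as was IGF2BP2, which had the widest range of the 10 (1.11 on the log2 scale) because of its low value in control 2. Among 8465 rows with a symbol and at least 5 CPM, the profiles nearest to that of METTL3 by Euclidean distance of centred log2 CPM were TOP1MT (0.0197), TBCB (0.0444) and COPS4 (0.0615), and 14 rows lay within 0.1. Nearest to IGF2BP2 were GLIPR2 (0.0638), RSF1 (0.0922) and PCBP3 (0.0973). With 4 libraries, close profiles are a description and nothing more.

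**Figure D4:**
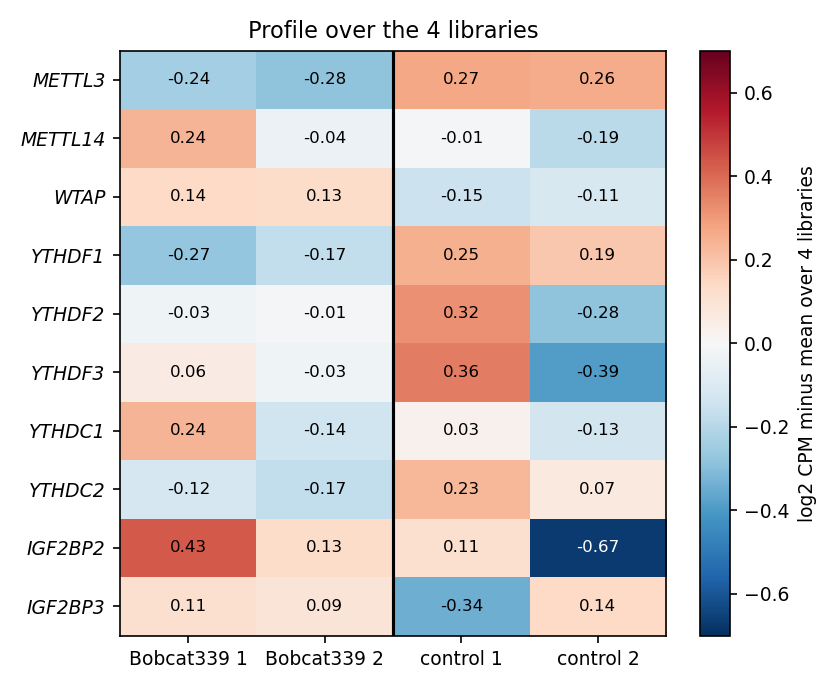
Log2 CPM of each gene minus its mean over the 4 libraries, with the value printed in each cell; red is above and blue below the mean, and Bobcat339 libraries stand left of the controls. METTL3 is at -0.24 and -0.28 with Bobcat339 and at 0.27 and 0.26 in controls, while YTHDF2 and YTHDF3 differ mainly between the controls.

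Other genes of the pathway did not pass the test either. Of 35 further genes in 6 roles 34 had a row, 33 were tested, and 0 passed in either direction by edgeR, with 0 at an unadjusted p under 0.05. Their median log2 fold change was -0.06 (-0.02 over all tested rows), with 13 above and 20 below 0, and in 9 of the 33 the groups did not overlap, beside 29.3% of all tested rows. HNRNPC could not be matched to a single row, and RBM46, with 5 to 7 counts a library, was below the filter. The demethylases, which belong like the TET enzymes to the iron and 2-oxoglutarate dependent dioxygenases, were both low. FTO had 4.82 and 4.07 CPM with Bobcat339 and 6.003 and 7.354 CPM in controls (log2 fold change -0.59, SE 0.39, interval -1.41 to 0.24). ALKBH5 had 10.3 and 9.52 CPM with Bobcat339 and 9.79 and 6.21 CPM in controls (0.31, interval -0.48 to 1.09). For FTO both Bobcat339 libraries were below both controls, but on only 71 and 56 counts with Bobcat339 and 84 and 103 in controls. For ALKBH5 the groups overlapped.

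Partners of the writers included more abundant transcripts. CBLL1, an E3 ligase of the writer complex, averaged 162 FPKM with Bobcat339 and 148 FPKM in controls (log2 fold change 0.11), and the zinc finger protein ZC3H13, which holds the complex in the nucleus, 29.6 and 25.5 FPKM (0.19). The mean of CBLL1 over the 4 libraries, 155 FPKM, was far above those of METTL3 and METTL14. TRMT112, a cofactor of several methyltransferases, was at -0.02 and METTL16, which methylates U6 RNA and MAT2A RNA in human cells, at -0.11. Of other proteins tied to the mark, HNRNPA2B1 was at 0.12 and the splicing factor RBMX at -0.22. Of the partners of readers, the splicing factor SRSF3 was at 0.15 and RIDA, an adaptor between YTHDF2 and RNase P in human cells, at 0.13. MAT2A and MAT2B encode subunits of the enzyme that makes the methyl donor S-adenosylmethionine. Both were at 0.14, and MAT2A averaged 284 FPKM with Bobcat339 and 252 FPKM in controls. METTL5, a methyltransferase of ribosomal RNA, had the largest difference of the 33 (-0.64, interval -1.48 to 0.20). Its levels were 4.96 and 5.67 CPM with Bobcat339 and 10.58 and 5.997 CPM in controls.

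IGF2BP1, the third paralogue of the IGF2BP family, had 79.8 and 74.8 FPKM with Bobcat339 and 91.9 and 37.4 FPKM in controls, and so ranked between IGF2BP3 and IGF2BP2. Its log2 fold change was 0.22 (SE 0.35, interval -0.52 to 0.96). Like METTL5 it was named after its values were seen. Without control 1 it passed the edgeR test at 1.05 (adjusted p = 0.000496), as did SRSF3 at 0.60 (0.024) and MAT2A at 0.52 (0.0231). That fit takes the spread of the Bobcat339 pair for the lone control library, and 586 of 20063 rows passed (2.92%). Without control 2 none of the 33 passed, with 494 of 19999 rows called (2.47%).

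**Figure D5:**
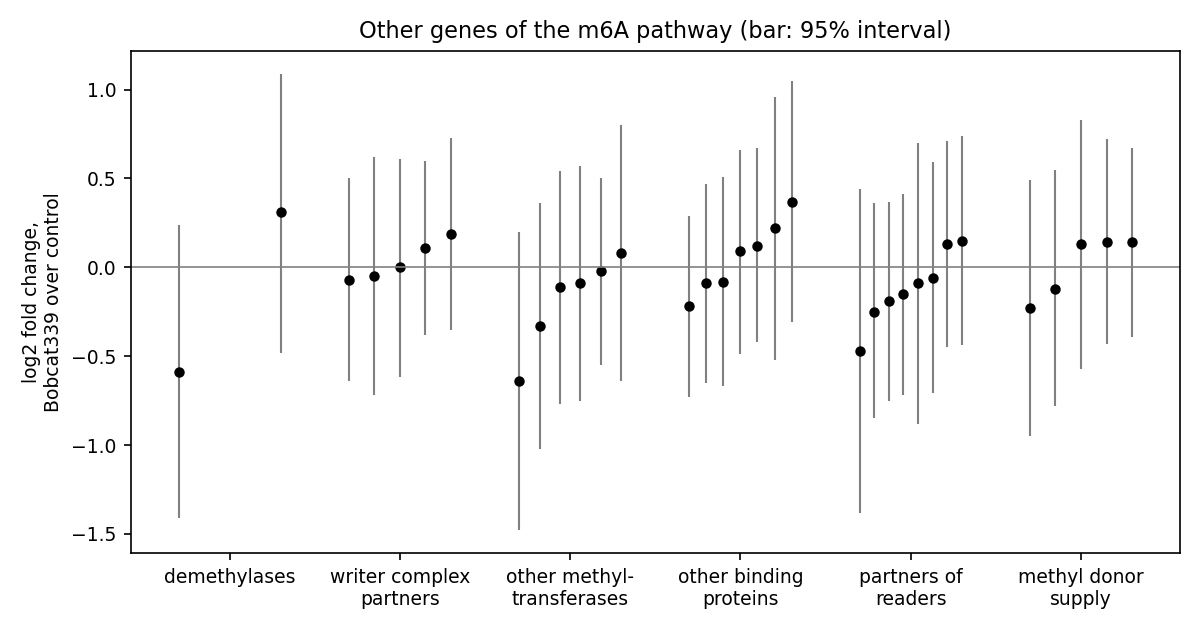
Log2 fold change, Bobcat339 over control, of the 33 further tested genes of the pathway by role, sorted within each role, with 95% intervals as bars. Values run from -0.64 to 0.37 and every interval includes 0.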

How the data were processed

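The authors deposited, per the file headers, raw read counts per gene and FPKM values for 4 libraries, made per the labels from TRIzol RNA with Smart-seq2, which does not mark the strand. HISAT2 2.0.5, HTSeq, Trimmomatic, DESeq2 1.16.1 and the build Sscrofa10.2 appear in the submitters' processing notes with no role; however, the deposited coordinates, used here as given, overlap the Sscrofa11.1 gene of the same name for 98.8% of 14155 symbols and all 10 genes. The deposited FPKM equal counts over library total and a length that is not the table's length column for any of the 10 genes, whose origin no source used here states.

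Counts were tested with edgeR 4.0.16 under R 4.3.3 (minimum count of 10 in filterByExpr, TMM, quasi-likelihood test, Benjamini-Hochberg at 0.05). The test was checked on simulated data, but only with changes larger than those of the 10 genes. The filter kept 18481 rows with 99.7% of counts; the common biological coefficient of variation was 26.4%. Alternatives used DESeq2 1.42.0 and limma 3.58.1, the latter also on log2(FPKM + 1). The 10 genes and lists were chosen with earlier results of these data known. Named beside the 10 were, per role, genes that passed or else the 2 with the highest mean FPKM, both demethylases, and the 3 profiles nearest to METTL3 and to the gene of widest range. Measurement columns of no sample number 0. Near-identical copies and overlapping genes may share counts.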

Additional observations from a re-analysis of the deposited data

How the results depend on the processing

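None of the 10 genes passed under any alternative tried. Of 79 values of these genes under other scalings, filters, tools or the block, 72 kept their direction and 7 turned, all of them YTHDF3: 0.00109 with DESeq2 size factors, 0.01 with no scaling, with no filter and with DESeq2, 0.03 with limma-voom and with the replicate block, and 0.05 with limma on log2(FPKM + 1). YTHDF1 was below the filter of at least 5 CPM in 2 libraries. With each library left out 5 of 40 values turned, and the ranges were -0.31 to 0.26 for YTHDF2, -0.32 to 0.41 for YTHDF3, -0.10 to 0.33 for YTHDC1 and -0.04 to 0.47 for IGF2BP3. Over all rows the count of calls was 5 with DESeq2, 44 with the replicate block (0.238%) and 0 to 586 with a library left out; in the wider list it was 0 to 3 with a library left out. Replicate numbers share no stated source; libraries of the same number deviated together across genes only weakly (r = 0.16), so the block was not taken as a pairing. Of the 10 positions in the order of levels, 8 were kept by the mean of the control libraries and 6 by that of the Bobcat339 libraries. Per kilobase of the table's length column 4 were kept, and by CPM 6. The order by CPM was chosen after seeing the data. So were leaving out libraries for the shares and other scalings for the gaps between replicates. The causes were not tested. YTHDF1, YTHDC2 and IGF2BP2 had the fewest counts of the 10 genes and the largest counting SEs.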
